A study of Homo sapiens with 2 samples.

Results

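The 87 genes described here encode enzymes that modify reactive or foreign small molecules, and they were chosen by symbol from 56255 in the table of 2 RNA-seq libraries. Both libraries came from A549, a cell line from a human lung adenocarcinoma, grown in DMEM with 10% fetal bovine serum. One was wild type (WT) and the other overexpressed MYOCD, whose product myocardin binds SRF and activates smooth and cardiac muscle genes. How MYOCD was introduced, the promoter, the time since then, whether the cells were a clone and whether WT carried an empty vector were not given in the sources used here. Each group is 1 library, so no value has a replicate error, no test was possible, and a difference is one between these libraries.

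Members were taken by gene symbol: the glutathione transferases of the A, K, M, O, P, T and Z classes, the membrane-bound transferases MGST1 to MGST3, UGT, SULT, AKR and ALDH genes whose symbol goes on with a number, a letter and a number (which leaves out ALDH2), and CBR1, CBR3, CBR4, EPHX1 and EPHX2. The pattern found 88 symbols. GSTT2, which GENCODE release 29 types as a polymorphic pseudogene and which was listed at 0 in both libraries, was left out, so 87 members in 8 families remained. An RPKM (reads per length of gene model, scaled to the library's read total) of at least 1 in at least 1 library was reached by 48 of them. Of the other 39, 15 were listed at 0 in both libraries and 24 lay at 0.947 RPKM or lower. That filter is a limit on level: UGT1A1 (0.940 RPKM in WT against 1.45 in MYOCD) lay just inside it and UGT2B11 (0.947 and 0.0324) just outside.

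Cells handle lipophilic foreign compounds and reactive aldehydes in steps. Aldo-keto and carbonyl reductases turn carbonyl groups into alcohols with NADPH, aldehyde dehydrogenases oxidise aldehydes to acids, and epoxide hydrolases open epoxides with water. Transferases then attach glutathione (GST and MGST), glucuronic acid (UGT) or sulfate (SULT), and the conjugates leave through ABC transporters. Many of these genes are targets of the transcription factor NRF2 (gene NFE2L2), which KEAP1 holds in check. A549 carries an inactivating KEAP1 mutation and is known for high levels of AKR1B10, AKR1C and ALDH enzymes.

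Markers of the epithelial line were present, and those of alveolar type 2 cells mostly were not. MYOCD stood at 0.304 RPKM in WT against 48.6 in MYOCD. The 5 epithelial markers KRT8, KRT18, KRT19, CDH1 and EPCAM summed to 3209 and 2234 RPKM. KRT8 (1523 and 1059) and KRT18 (1647 and 1134) make up most of that sum, whereas EPCAM was called higher (0.889 and 2.57) and KRT19 (2.94 and 3.24) and CDH1 (35.01 and 35.8) lay slightly above their WT values. Of 5 alveolar type 2 markers only ABCA3 passed the filter, and SFTPC and SFTPA2 were at 0 in both libraries. Blood and endothelial markers (4 genes each) summed to at most 0.139 RPKM in either library, with PTPRC, CD3E, CDH5, KDR and VWF at 0 in both. Hepatocyte markers (5 genes) summed to 1.88 and 0.971 RPKM and fibroblast markers (5 genes) to 5.51 and 15.6, of which COL1A1 held 3.05 and 14.3, while THY1 stood at 1.91 and 0.959 and PDGFRB at 0.432 and 0.00968. Myogenic markers (5 genes) summed to 11.9 and 17.5 RPKM. Of these TAGLN was called higher (2.34 and 6.93), while ACTA2 (8.28 and 8.97) and MYH11 (0.830 and 1.24) lay under 2-fold. CNN1 (0.355 and 0.328) and DES (0.0678 and 0) stayed under the filter and lay below their WT values. The part of these differences in the results on the members was not tested, and in bulk RNA fewer cells with a transcript and less of it per cell cannot be told apart.

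The members as a whole stood close to their WT levels. Their summed RPKM was 7283 in WT and 7497 in MYOCD, or 0.830% and 0.861% of the table. The log2 change was taken as log2((MYOCD + 0.5)/(WT + 0.5)), a scale that understates differences between low values. A gene at or beyond 2-fold on this scale was called, which is a threshold of size with no test behind it. Of the 48 members past the filter 2 were higher (SULT1C2 and UGT1A7), 2 were lower (ALDH1A2 and GSTM3) and 44 lay under 2-fold. These 4 calls are 8.33% of the members, where 11.8% of all 17350 genes past the filter were called (5.42% higher and 6.35% lower) and 6.11% of the 12337 protein-coding genes were (3.02% higher and 3.1% lower). The share of members called thus lay between these backgrounds. All 4 called members had under 10 RPKM in the higher library, a band in which 4 of 18 members (22.2%) and 11% of protein-coding genes were called. Of the 30 members at 10 RPKM or more 0 were called, where the backgrounds were 3.35% for protein-coding genes from 10 to 100 RPKM and 2.8% for those at 100 or more. The median log2 change of the 48 members was -0.044, against -0.0021 over all genes, and 29 of them (60.4%) lay below 0, against 50.2% of all genes and 49.5% of protein-coding genes. When the median change of 11 steady reference genes (-0.087, 0 called) was set to 0, the member median was 0.042 and 21 members lay below 0, so its sign turned with the scaling.

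**Figure D1:**
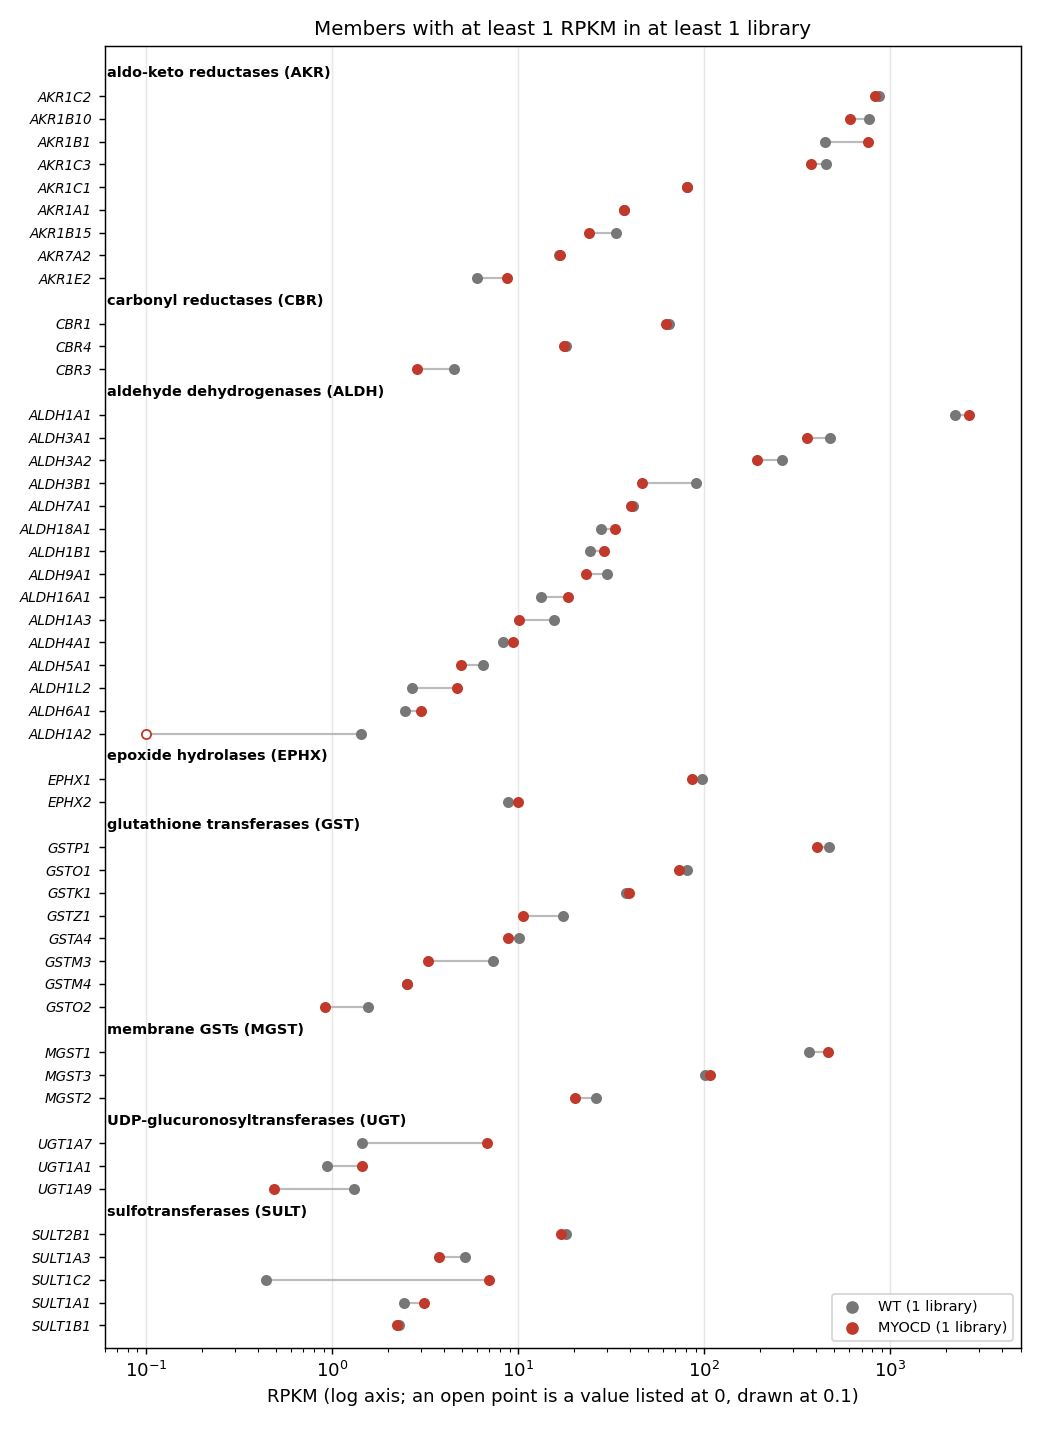
Deposited RPKM of the 48 members with at least 1 RPKM in a library, on a log axis, grouped by enzyme family and ordered by mean within each (grey, WT; red, MYOCD; 1 library each). The points of most genes lie close together from ALDH1A1, at 2228 and 2642 RPKM, down to single digits, and the longest lines belong to SULT1C2, UGT1A7 and ALDH1A2, the last listed at 0 in MYOCD.

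The level of the set rested on a few genes. The 10 members with the highest means held 88.3% of the summed RPKM in WT and 89.7% in MYOCD. ALDH1A1 alone held 30.6% and 35.2%, and ranked 34 in WT and 31 in MYOCD among all symbols of the table.

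Aldo-keto reductases kept nearly the same summed level. Of 12 genes 9 passed the filter and 0 were called, beside 11.8% of all genes and 6.11% of protein-coding genes. The family sum was 2704 RPKM in WT against 2730.3 in MYOCD. AKR1C2, a 3-alpha-hydroxysteroid dehydrogenase, stood at 865 RPKM in WT against 825 in MYOCD. AKR1C3, which reduces 17-ketosteroids and prostaglandins, stood at 453 and 373, and AKR1C1, a 20-alpha-hydroxysteroid dehydrogenase, at 81.1 and 80.8. Thus in both libraries AKR1C2 was listed far above AKR1C1, its neighbour on chromosome 10 (AKR1C1 from 4963253 to 4983283 on the plus strand, AKR1C2 from 4987400 to 5018031 on the minus strand, AKR1C3 from 5035354 to 5107686 on the plus strand; GRCh38, GENCODE release 29). AKR1C4, a liver enzyme, stayed under the filter at 0.306 and 0.284 RPKM.

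AKR1C1 and AKR1C2 are hard to tell apart by short reads, which limits the level of each. Their coding sequences of 969 nt, from the start to the last sense codon, differ at 19 positions (98.04% identical), while AKR1C1 and AKR1C3 differ at 83. The first 120 coding bases of both, from GENCODE release 29 transcripts, are shown because they carry this likeness (chr10:4963445-4965949, plus strand, for AKR1C1 and chr10:5001646-5003835, minus strand, for AKR1C2, each across 2 coding exons). Capitals mark the 4 bases that differ.
AKR1C1: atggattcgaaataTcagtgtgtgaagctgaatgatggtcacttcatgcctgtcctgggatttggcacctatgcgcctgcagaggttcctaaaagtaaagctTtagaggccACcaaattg
AKR1C2: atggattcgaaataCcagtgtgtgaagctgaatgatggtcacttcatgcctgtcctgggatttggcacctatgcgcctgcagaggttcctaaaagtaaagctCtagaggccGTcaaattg
Of all 50-base stretches in the annotated transcripts, 28.6% of those of AKR1C1 and 38.9% of those of AKR1C2 also occurred in another member. The sources used here do not say how the authors assigned reads that fit both.

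The AKR1B genes, on chromosome 7, had changes of both signs. AKR1B1 (134442350 to 134459284, minus strand) encodes aldose reductase, the first enzyme of the polyol pathway, and stood at 446 RPKM in WT against 760.5 in MYOCD, a ratio of 1.70 and a log2 change of 0.77. Its change was larger in size than that of 82.7% of all genes, and it moved from rank 205 to rank 107 in the table. AKR1B10 (134527592 to 134541408, plus strand), which reduces retinaldehyde and lipid aldehydes and is abundant in lung tumours of smokers, stood at 765 and 604 RPKM, a log2 change of -0.34. AKR1B15, its close relative, stood at 33.6 and 24.03 RPKM. The order of the 2 most abundant AKR1B genes was therefore reversed, with AKR1B10 the higher in WT and AKR1B1 in MYOCD. AKR1B1 held 16.5% of the family's RPKM in WT and 27.9% in MYOCD, and AKR1B10 28.3% and 22.1%. AKR1B1 and AKR1B10 differ at 235 of 948 coding bases, and 0.259% of the 50-mers of AKR1B1 occurred in another member.

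The remaining reductases lay under 2-fold. AKR1A1, the aldehyde reductase of most tissues, stood at 36.9 RPKM in WT against 37.2 in MYOCD, and AKR7A2, which reduces succinic semialdehyde and aflatoxin dialdehyde, at 16.6 and 16.7. AKR1E2 stood at 6.05 and 8.76 RPKM (log2 change of 0.50). AKR1D1 and AKR7A3 stayed under 0.3 RPKM. Among the carbonyl reductases, CBR1, which reduces quinones, prostaglandins and anthracyclines, stood at 64.9 and 62.5 RPKM, CBR4, a mitochondrial enzyme, at 18.1 and 17.7, and CBR3 at 4.53 and 2.86 (log2 change of -0.58). CBR3 overlaps exons of the antisense gene CBR3-AS1 (1.88 and 1.17 RPKM), and since the use of strand in counting is not stated, reads of the pair cannot be told apart. The same holds for 15 of the 48 members past the filter, which overlap exons of a gene on the opposite strand.

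Aldehyde dehydrogenases held the most abundant member. Of 18 genes 15 passed the filter, 0 were higher and 1 (6.67%) was lower, beside 5.42% and 6.35% of all genes. The family sum was 3229 RPKM in WT against 3414 in MYOCD. ALDH1A1, a cytosolic retinaldehyde dehydrogenase and a marker used for tumour-initiating cells, stood at 2228 RPKM in WT against 2642 in MYOCD, with a log2 change of 0.25, and held 69.0% and 77.4% of the family's RPKM. Its gene lies on chromosome 9 from 72900662 to 73080442 on the minus strand, and none of its 50-mers occurred in another gene.

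The other retinaldehyde dehydrogenases had lower values in MYOCD. ALDH1A3 stood at 15.5 RPKM in WT against 10.1 in MYOCD (log2 change of -0.59), and it shares exons with the antisense gene AC015712.2. ALDH1A2, on chromosome 15 from 57953424 to 58497866 on the minus strand, stood at 1.44 RPKM in WT and was listed at 0 in MYOCD. It was called lower, and no fold is given because the MYOCD value is 0. Its exons overlap those of AQP9, listed at 0 in both libraries, and of AC025431.1 on the opposite strand. With a filter of 5 RPKM or on the mean, ALDH1A2 was not counted.

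All 3 ALDH3 genes past the filter had lower values in MYOCD, where 50.2% of all genes had a log2 change below 0. The 3 AKR1C genes past the filter and the 3 carbonyl reductases lay below 0 too. Of the 3 ALDH3 genes 0 reached 2-fold, beside 11.8% of all genes and 6.11% of protein-coding genes. ALDH3A1, which oxidises aromatic and lipid aldehydes and is a known NRF2 and aryl hydrocarbon receptor target, stood at 475 RPKM in WT against 356 in MYOCD. ALDH3A2, the fatty aldehyde dehydrogenase, stood at 262 and 193. ALDH3B1, a membrane-linked enzyme for lipid aldehydes, stood at 90.4 and 46.4 RPKM, a log2 change of -0.96 just under the limit and larger in size than that of 87.4% of all genes. The sum of the ALDH3 genes was 828 RPKM in WT against 595 in MYOCD. ALDH3B2 was near 0 in both libraries, at 0.0569 and 0 RPKM.

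The dehydrogenases of mitochondria and amino acid metabolism lay on both sides of their WT values, all under 2-fold. ALDH7A1, which acts in lysine breakdown, stood at 41.3 RPKM in WT against 40.5 in MYOCD, ALDH18A1, which starts proline synthesis, at 27.9 and 33.2, and ALDH9A1, which acts in carnitine synthesis, at 29.96 and 23.2. ALDH1B1 stood at 24.5 and 29.02 RPKM and ALDH16A1 at 13.3 and 18.5. ALDH1L2, the mitochondrial 10-formyltetrahydrofolate dehydrogenase, stood at 2.70 and 4.71 RPKM (log2 change of 0.70), while its cytosolic relative ALDH1L1 stayed under the filter at 0.0196 and 0.156. ALDH4A1 (8.32 and 9.35 RPKM), ALDH5A1 (6.44 and 4.93) and ALDH6A1 (2.45 and 3.01) lay within a log2 change of 0.5. ALDH8A1 stayed under 0.2 RPKM.

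The epoxide hydrolases stood close to level. EPHX1, the microsomal enzyme for xenobiotic epoxides, stood at 97.1 RPKM in WT against 85.98 in MYOCD. EPHX2, the soluble enzyme for fatty acid epoxides, stood at 8.84 and 9.94.

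Glutathione transferases of the soluble classes were mostly below their WT values. Of 15 genes 8 passed the filter, 0 were higher and 1 (12.5%) was lower, beside 5.42% and 6.35% of all genes. Of the 8, 7 (87.5%) had a log2 change below 0, beside 50.2% of all genes. The median of the 8 was -0.21. With those reference genes at 0, each change is higher by less than the size of this median. GSTP1, the transferase that dominates in lung tumours, stood at 470.2 RPKM in WT against 404 in MYOCD and held 74.8% and 74.4% of the family. GSTO1, an omega-class thiol transferase, stood at 80.7 and 73.3, and GSTK1, the mitochondrial and peroxisomal form, at 38.03 and 39.3. GSTZ1, which isomerises maleylacetoacetate in tyrosine breakdown, stood at 17.3 and 10.7 RPKM (log2 change of -0.67), and its exons overlap those of POMT2 on the opposite strand. GSTA4, the class A enzyme for 4-hydroxynonenal, stood at 10.2 and 8.78 RPKM and GSTO2 at 1.56 and 0.919.

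GSTM3 was the 1 transferase called lower. It stood at 7.37 RPKM in WT against 3.26 in MYOCD, a ratio of WT to MYOCD of 2.26 and a log2 change of -1.07. The gene lies on chromosome 1 from 109733932 to 109741038 on the minus strand, beside the other GSTM genes. Within that cluster GSTM4 stood at 2.54 and 2.53 RPKM, GSTM2 stayed under the filter at 0.631 and 0.590, and GSTM1 and GSTM5 were at 0 in MYOCD and under 0.02 in WT. Exons of GSTM3 overlap those of AL158847.1 on the opposite strand. GSTM3 shared 0% of its 50-mers with another member and 4.80% with any gene, while GSTM1 shared 49.7% with other members. The call was lost with a pseudocount of 1 RPKM (-0.97) and with the steady reference genes at 0 (-0.98). Of the class A genes other than GSTA4, GSTA1 and GSTA2 were under 0.1 RPKM in WT and at 0 in MYOCD, and GSTA3 and GSTA5 were at 0 in both.

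The membrane-bound transferases summed to less than the soluble ones in WT and to more in MYOCD. MGST1, which protects membranes from lipid peroxides, stood at 365 RPKM in WT against 460.3 in MYOCD (log2 change of 0.33). MGST3 stood at 101 and 107 RPKM and MGST2, which can make leukotriene C4, at 26.2 and 20.2. Their sum was 492 RPKM in WT against 587 in MYOCD, beside 629 and 544 for the soluble GST genes.

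**Figure D2:**
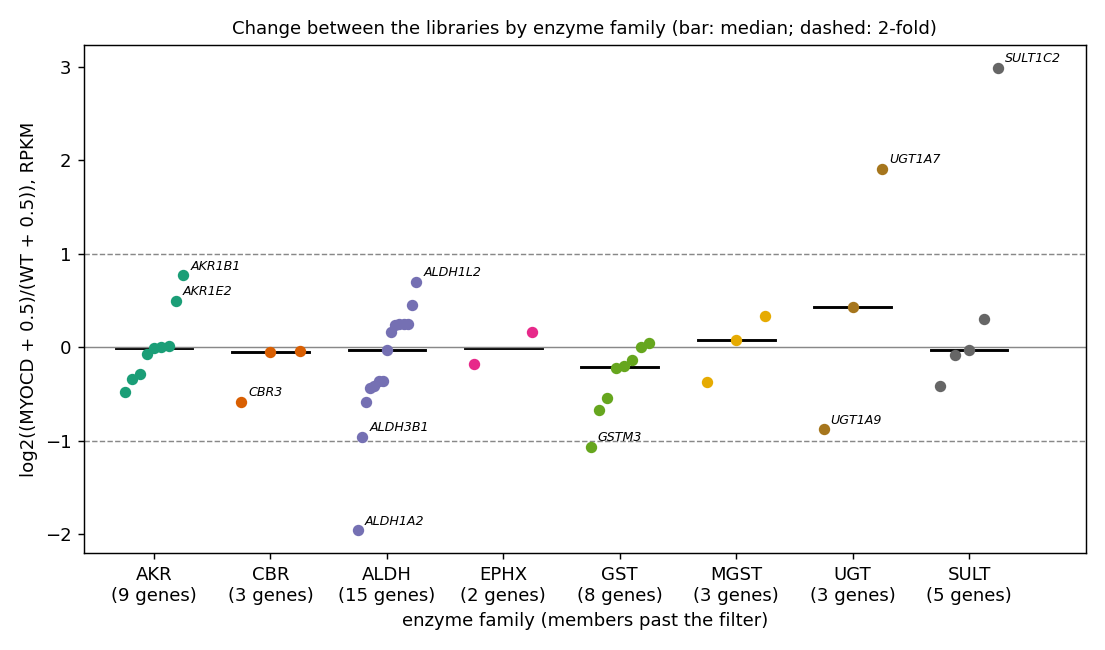
Each point is the log2 change of 1 of 48 members with at least 1 RPKM, by enzyme family, with the family median as a bar and 2-fold as dashed lines. Most points lie between the dashed lines; SULT1C2 and UGT1A7 lie above, ALDH1A2 and GSTM3 below, and ALDH3B1 just inside at -0.96.

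Glucuronosyltransferases were nearly silent apart from the UGT1A locus. Of 21 genes 3 passed the filter (UGT1A1, UGT1A7 and UGT1A9), 9 were at 0 in both libraries, and the family summed to 5.97 RPKM in WT against 9.94 in MYOCD. All 10 UGT2 genes and both UGT3 genes stayed under the filter. UGT1A7, an enzyme of the airway and upper gut that glucuronidates phenols and tobacco carcinogens, stood at 1.45 RPKM in WT against 6.83 in MYOCD, a ratio of 4.71 and a log2 change of 1.91. UGT1A9 had 1.32 and 0.488 RPKM (log2 change of -0.88), UGT1A1, the bilirubin enzyme, 0.940 and 1.45, and UGT1A6 0.545 and 0.308. The genes of this locus thus stood on both sides of 0. UGT2B11 went from 0.947 to 0.0324 RPKM and UGT2B7 stood at 0.418 and 0.346, both under the filter.

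The UGT1A genes are alternative first exons of a shared locus on chromosome 2, so their RPKM values are not independent. UGT1A7 spans 233681938 to 233773299 on the plus strand and has 4167 nt of exons, of which 1692 nt (40.6%) are also exons of UGT1A6. UGT1A7 shares 1478 nt of exons (35.5%) with each of UGT1A1, UGT1A8, UGT1A9 and UGT1A10. Of the 9 UGT1A genes 3 (UGT1A3, UGT1A8 and UGT1A10) were listed at 0 in both libraries although they hold those shared exons. To which gene reads from there were assigned was not given in the sources used here. Coding sequences of UGT1A7 and UGT1A9, with the shared exons included, differ at 66 of 1590 bases. UGT1A7 shared 1598 of its 50-mers with UGT1A6, more than with any other gene. It shared 1460 with UGT1A9, and 1430 with each of UGT1A1, UGT1A3, UGT1A4 and UGT1A5. Outside the exons common to the locus, UGT1A7 and UGT1A9 thus had few 50-mers in common. Their first 120 coding bases, which lie in the first exons, are shown because that is where reads of UGT1A7 and UGT1A9 can differ (chr2:233681938-233682057 and chr2:233671935-233672054, both plus strand, GRCh38, GENCODE release 29). Capitals mark the 11 bases that differ.
UGT1A7: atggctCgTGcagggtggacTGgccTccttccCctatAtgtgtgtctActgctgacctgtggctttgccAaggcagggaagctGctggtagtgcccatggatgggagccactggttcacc
UGT1A9: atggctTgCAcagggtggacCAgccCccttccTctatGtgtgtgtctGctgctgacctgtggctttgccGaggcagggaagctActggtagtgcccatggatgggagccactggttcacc
The genes beside the locus had USP40 at 34.7 and 28.4 RPKM and HJURP at 63.3 and 59.3, under 2-fold.

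**Figure D3:**
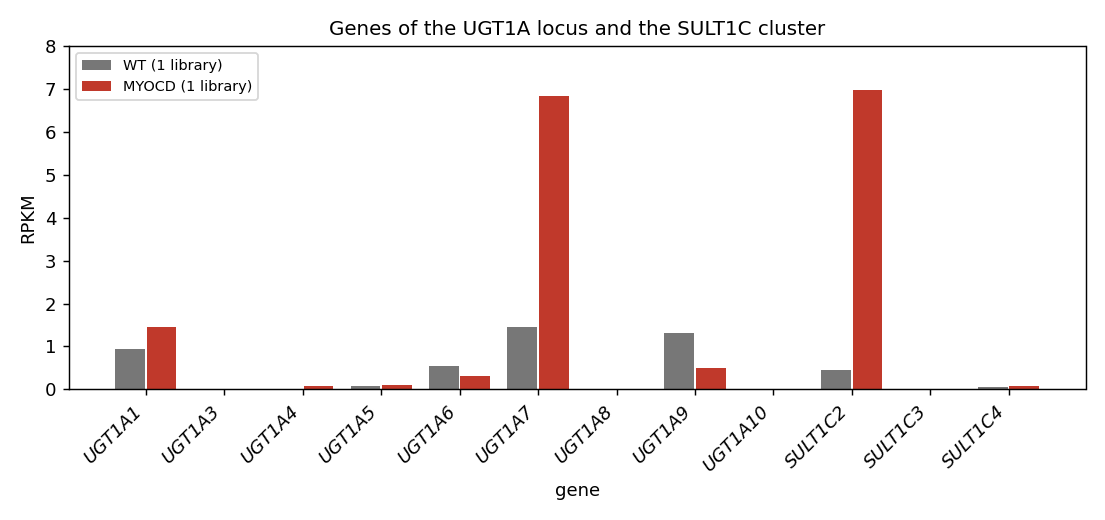
Deposited RPKM of the 9 UGT1A genes and the 3 SULT1C genes in WT (grey) and MYOCD (red), 1 library each, on an axis from 0. UGT1A7 and SULT1C2 stand at 6.83 and 6.98 RPKM in MYOCD, and every other bar lies under 1.5 RPKM.

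Sulfotransferases included SULT1C2, which had the largest log2 change among the 48 members with a pseudocount of 0.5 RPKM. With 0.1 RPKM the change of ALDH1A2, listed at 0 in MYOCD, was larger in size (-3.94, against 3.71 for SULT1C2). Of 13 genes 5 passed the filter, 1 (20%) was higher and 0 were lower, beside 5.42% and 6.35% of all genes. SULT1C2, a cytosolic enzyme that sulfates phenols, stood at 0.440 RPKM in WT against 6.98 in MYOCD, a ratio of 15.9 and a log2 change of 2.99, larger in size than that of 97.4% of all genes. The gene spans 108288639 to 108309915 of chromosome 2, plus strand. In the same cluster SULT1C4 stood at 0.0637 and 0.0831 RPKM and SULT1C3 at 0 in both libraries, and the nearby gene GCC2 at 20.4 and 19.5, so within this stretch the difference was seen at SULT1C2 alone. SULT1C2 shared 0% of its 50-mers with other members, 0.849% with any gene, and no exon with another annotated gene. It was at or beyond 2-fold under all 9 alternative settings that were run for single genes.

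The other sulfotransferases lay under 2-fold. SULT2B1, which sulfates cholesterol and pregnenolone, was the most abundant in both libraries, at 18.2 RPKM in WT against 17.1 in MYOCD. SULT1A1, the main phenol sulfotransferase, stood at 2.43 and 3.10 RPKM, SULT1B1, a thyroid hormone sulfotransferase, at 2.28 and 2.23, and SULT1A3, the dopamine sulfotransferase, at 5.18 and 3.76. SULT1A3 and SULT1A4 have identical coding sequences of 903 nt, and 76.6% of the 50-mers of SULT1A3 occurred in another member, so its split from SULT1A4 (0.362 and 0.107 RPKM) is uncertain. SULT1E1, the oestrogen sulfotransferase, and SULT2A1 were at 0 in both libraries.

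**Figure D4:**
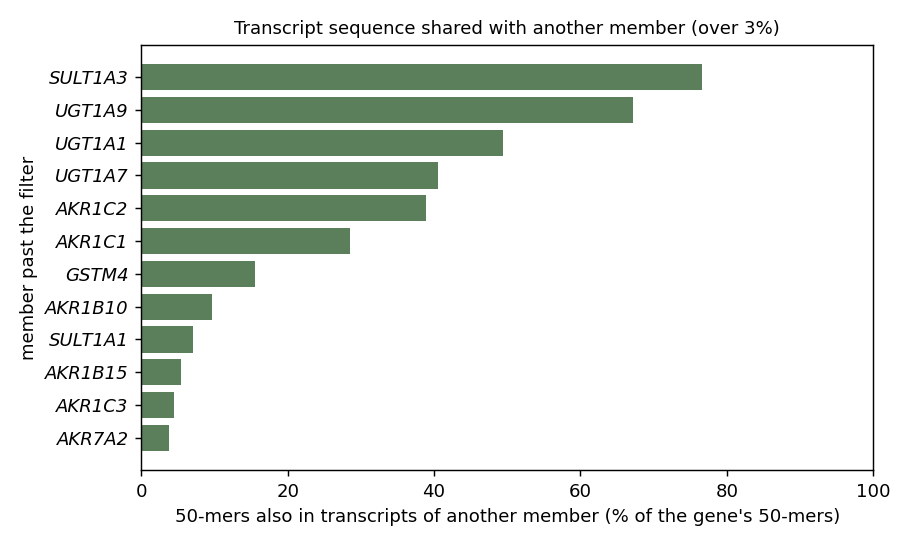
Share of a member's 50-base stretches that also occur, on either strand, in annotated transcripts of another member, for the 12 members past the filter with over 3%. SULT1A3 has the highest share at 76.6%, the UGT1A genes range from 40.5% to 67.2%, and AKR1C2 and AKR1C1 stand at 38.9% and 28.6%.

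Promoter sequence was examined for the core of the antioxidant response element, the site that NRF2 binds (TGACNNNGC, both strands), and for the CArG box bound by SRF (both strands). RefSeq promoters (GRCh38.p14, 250 bases before to 50 after each annotated start) were found for 71 of the 87 members, with 87 starts in all. The first motif occurred in 15 of these promoters (17.2%), beside 13.3% of all 35116 promoters, and the CArG box in 2 (2.3%), beside 1.29%. Among members past the filter these were 9 of 52 promoters, for AKR7A2, EPHX1, SULT1C2, GSTA4, GSTO1, GSTP1, MGST1 and CBR1, and 1 of 52, for GSTP1. These are 17.3% and 1.92%, beside 14.4% and 1.04% of the promoters of all genes past the filter. The genes with the motif stood on both sides of 0, for example MGST1 at a log2 change of 0.33 and GSTP1 at -0.22. Stretches around the match are shown for GSTP1 (chr11:67583731-67583769, plus strand), GSTO1 (chr10:104254651-104254689, plus strand) and CBR1 (chr21:36069850-36069888, plus strand) as examples, the farther of 2 matches being shown for GSTO1. Capitals mark the match, which in CBR1 reads on the opposite strand.
GSTP1: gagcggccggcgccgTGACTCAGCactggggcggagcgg
GSTO1: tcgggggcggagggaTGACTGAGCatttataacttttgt
CBR1: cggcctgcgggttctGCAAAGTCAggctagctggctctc
The letters of the GSTP1 match also hold the site bound by AP-1. Enhancer elements farther from the start lie outside these windows.

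The 250 bases upstream of a RefSeq start of SULT1C2 (chr2:108288645-108288894, plus strand) and of UGT1A7 (chr2:233681651-233681900, plus strand) are shown because these members had the largest gains. The SULT1C2 stretch lies within the GENCODE span of that gene, which begins at 108288639. Capitals in SULT1C2 mark the match to the antioxidant response core, on the opposite strand, which starts 62 bases before the RefSeq start. Neither stretch held a CArG box, and that of UGT1A7 held neither motif.
SULT1C2: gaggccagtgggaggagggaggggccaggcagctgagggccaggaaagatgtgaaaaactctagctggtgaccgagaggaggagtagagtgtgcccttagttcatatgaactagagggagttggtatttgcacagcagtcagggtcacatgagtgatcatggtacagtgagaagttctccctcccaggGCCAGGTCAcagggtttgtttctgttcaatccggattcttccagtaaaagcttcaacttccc
UGT1A7: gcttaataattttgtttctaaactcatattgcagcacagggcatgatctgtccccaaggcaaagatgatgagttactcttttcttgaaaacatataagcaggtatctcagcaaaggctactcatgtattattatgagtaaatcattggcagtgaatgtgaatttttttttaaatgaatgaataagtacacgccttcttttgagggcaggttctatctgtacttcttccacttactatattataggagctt
A match is a description of letters and no evidence of binding.

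Regulators and co-substrates of these enzymes were read from gene lists beside the members. Of all genes past the filter 5.42% were higher, 6.35% were lower and 50.2% lay below 0. Of protein-coding genes 3.35% were called from 10 to 100 RPKM and 2.8% at 100 RPKM or more. Of 10 genes of the NRF2 machinery 0 were higher and 1 (10%) was lower, with a median log2 change of -0.45. NRF2 itself (NFE2L2) stood at 74.6 RPKM in WT against 47.8 in MYOCD, its inhibitor gene KEAP1 at 49.4 and 30.7, and its small Maf partner MAFK, the called gene, at 67.7 and 31.97. SQSTM1 (947 and 679.8 RPKM), NFE2L1 (103 and 96.2) and CUL3 (73.8 and 54.8) had the highest means of the list. MAFK was under 2-fold with the steady reference genes at 0 (-0.98).

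Of 26 NRF2 targets that are not members 0 were higher and 5 (19.2%) were lower, beside 6.35% lower of all genes. Of the 26, 24 (92.3%) lay below 0, beside 50.2% of all genes. The median log2 change of the 26 was -0.41. The lower genes were OSGIN1 (96.8 RPKM in WT against 22.8 in MYOCD), SRXN1 (224 and 109), NR0B1 (35.2 and 13.3) and the fatty acid hydroxylase genes CYP4F11 (35.9 and 4.89) and CYP4F3 (25.2 and 5.05). SRXN1 was under 2-fold with the steady reference genes at 0 (-0.95). The iron storage genes FTL (6924 and 4169 RPKM) and FTH1 (3942 and 3768) and the peroxiredoxin gene PRDX1 (1079 and 916) were the most abundant. Several members named above are NRF2 targets too. Examples are AKR1C1 at a log2 change of -0.0050, AKR1C2 at -0.07, AKR1C3 at -0.28, AKR1B10 at -0.34 and ALDH3A1 at -0.42. All of these but ALDH3A1 lay nearer to 0 than the median of the 26. They are examples and not a full list of the members that are NRF2 targets. Whether members and the other targets differ was not tested, since each group has 1 library.

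Genes of the aryl hydrocarbon receptor, which senses aromatic hydrocarbons and induces several of these enzymes, had 0 higher and 3 lower among 6 past the filter. These 3 are 50% of the 6, beside 6.35% lower of all genes. The receptor gene AHR stood at 27.5 RPKM in WT against 13.6 in MYOCD (log2 change of -0.99), its repressor gene AHRR at 5.32 and 1.37, TIPARP at 34.01 and 14.99 and CYP1B1 at 92.3 and 19.6. With a pseudocount of 0.1 RPKM 4 were lower, AHR being the gene added. The partner gene ARNT was level, at 14.4 and 14.4. Of 11 nuclear receptors and liver-type factors past the filter 1 (9.09%) was higher, beside 5.42% of all genes. It was HNF4A, with 4.36 and 10.7 RPKM. CEBPB (62.1 and 72.2), RXRA (21.2 and 18.7) and FOXA2 (12.2 and 17.1) were the most abundant, and the xenobiotic receptor gene NR1I2 stayed under the filter.

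Of the genes that supply the co-substrates (8 for glutathione, 3 for UDP-glucuronate, 5 for the sulfate donor PAPS and 7 for NADPH) 0 were called. Of all genes past the filter 11.8% were called, and of protein-coding genes 6.11%. The nearest to the limit among the glutathione genes was CHAC1, which encodes a glutathione-degrading enzyme, with 2.02 RPKM in WT against 4.08 in MYOCD and a log2 change of 0.86 with the pseudocount. The glutathione reductase gene GSR stood at 200.2 RPKM in WT against 155 in MYOCD, and the ligase genes GCLC and GCLM at 152 and 110.4 and at 112 and 86.4. UGDH, which makes UDP-glucuronate, stood at 257 and 322 RPKM, and its upstream partner UGP2 at 103 and 77.8. SLC35B2, a PAPS transporter, stood at 25.2 and 23.5. The PAPS synthases PAPSS1 and PAPSS2 stood at 16.8 and 17.2 and at 17.6 and 17.9. PGD, an NADPH-forming enzyme of the pentose phosphate pathway, stood at 688 and 493, and IDH1, which forms NADPH from isocitrate, at 97.3 and 78.8.

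Of 11 genes for efflux and cleavage of conjugates 0 were higher and 1 (9.09%) was lower, beside 6.35% lower of all genes. It was ABCG2, a transporter of sulfate conjugates, with 53.5 RPKM in WT against 20.4 in MYOCD. The conjugate transporters ABCC3 (190.3 and 133.8), ABCC2 (124 and 101) and ABCC1 (76.1 and 72.8) were more abundant and lay under 2-fold. Retinoid genes, which lie beside the ALDH1A and AKR1B10 steps, had 3 higher (17.6%) and 1 lower (5.88%) among 17. Of all genes 5.42% were higher and 6.35% lower. The transglutaminase gene TGM2 stood at 37.1 and 186 RPKM, the retinoic acid receptor gene RARB at 4.86 and 15.6, the retinol carrier receptor gene STRA6 at 20.99 and 46.7, and the retinol-binding protein gene RBP4 at 1.83 and 0.643. The most abundant others were FABP5 (57.7 and 79.5), RDH11 (40.6 and 46.03) and DHRS3 (33.3 and 38.8). RBP4 was under 2-fold with a pseudocount of 1 RPKM (-0.78) and with the steady reference genes at 0 (-0.94).

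**Figure D5:**
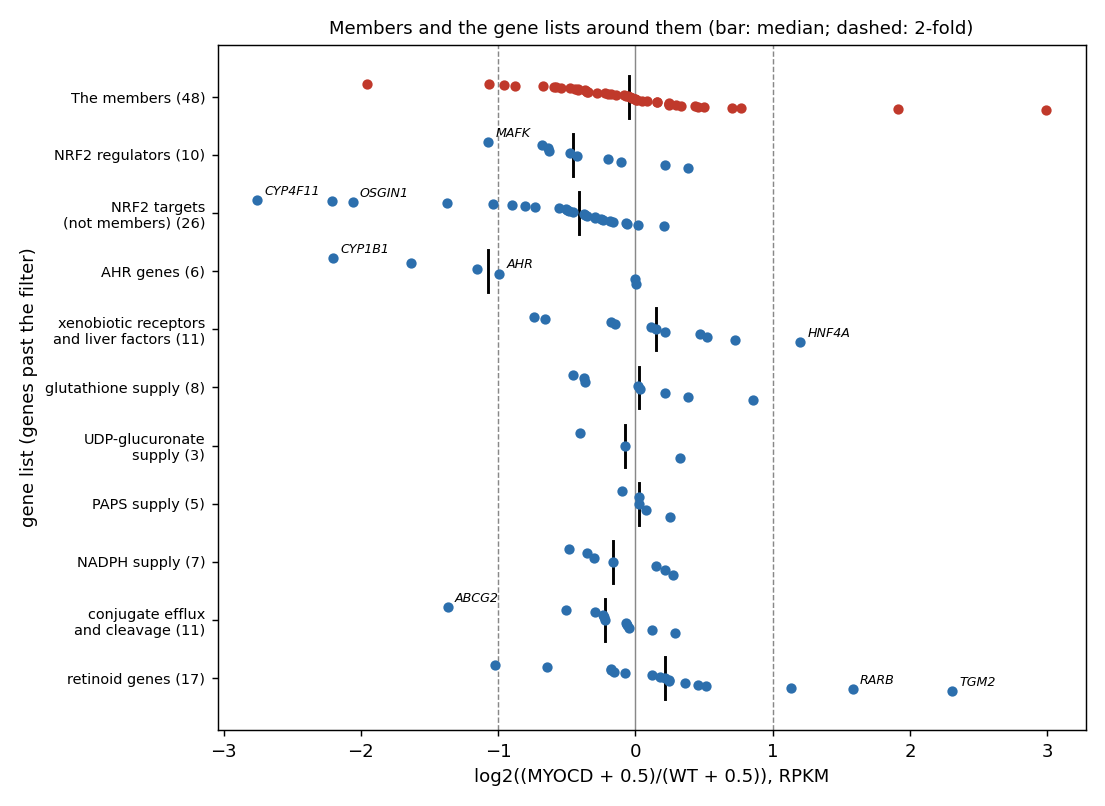
Log2 change of the members (red) and of genes past the filter in 10 lists around them (blue), with the number of genes in parentheses, the median as a bar and 2-fold as dashed lines. The members centre on -0.044, NRF2 targets outside the members on -0.41, the aryl hydrocarbon receptor genes on -1.07 and the retinoid genes on 0.22.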

How the data were processed

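RNA was measured in 1 WT and 1 MYOCD library. Per the file headers, the authors deposited RPKM per gene for each. Per the submitters' processing notes, Bowtie 0.12.2 and the builds mm8 (a mouse assembly) and GRCh38.p12 were used in roles not stated. Counter, annotation and use of strand were not given in the sources used here. Low values of genes with 1 transcript lay within 0.1 of a whole multiple of the best step in 30.3% (WT) and 30.5% (MYOCD) of cases. Chance gives 20% for a fixed step, and the best of many steps tried can exceed that by selection alone. Reads were therefore not recovered, depth is unknown and count models were not fitted.

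The table has 57979 gene lines and 56255 symbols, of which 248 stand on several lines and were taken from the line with the highest mean. Types and positions came from GENCODE release 29 (GRCh38), which held 57375 of the identifiers. Python 3.11.15, numpy 2.4.6, pandas 2.3.3 and matplotlib 3.10.9 were used, with a pseudocount of 0.5 RPKM, a filter of 1 RPKM in at least 1 library and a limit of 2-fold. The calls were tested on simulated data without noise, which checks the arithmetic only and not how reliable a call from 1 library per group is. Shared sequence is the share of a gene's distinct 50-mers found in transcripts of other genes.

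Members past the filter and their closest relatives were named. Of the other lists, NFE2L2, KEAP1, AHR, HNF4A, genes at or beyond 2-fold and the 3 with the highest mean were named, except items not reported here. Further genes (CHAC1, other members under the filter, marker and neighbouring genes, ARNT, NR1I2 and alcohol dehydrogenases) were picked with their values in view. Members and lists were chosen with earlier results of these data known.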

Additional observations from a re-analysis of the deposited data

How the results depend on the processing

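With 1 library per group no replicate could be left out. No paired analysis was possible because each group has 1 library and no result comes from a test. The count of members higher was 2 and that of members lower 2. The lower count was 1 with a pseudocount of 1 RPKM, a filter of 5 RPKM, a filter on a mean RPKM of 1 or the steady reference genes at 0. It was 3 with a pseudocount of 0.1 RPKM, where UGT1A9 was added, and 3 without a filter, where UGT2B11 was added. At 1.5-fold the counts were 4 and 6. Without members sharing over 25% of their 50-mers with other members, an alternative added after seeing the data, 1 was higher, because UGT1A7 was left out. The member median was 0.042 with the steady reference genes at 0, which moved the median of all genes to 0.085, was 0 without a filter and lay below 0 under the other alternatives. Over all genes, 940 higher and 1102 lower became 450 and 510 at 5 RPKM, 2007 and 2296 at 1.5-fold, and 372 and 382 among protein-coding genes. Of 420 values for 48 named members under 9 alternatives, 411 kept their side of the limit, 2 fell under it, 7 passed it and 0 changed sign while called. UGT1A9 passed it with a pseudocount of 0.1 RPKM (-1.27). Setting the steady genes to 0 changes each value by the same amount; the causes of other shifts were not tested. Unknown depth limits all values under about 1 RPKM.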

Other observations

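Relatives outside the naming pattern gave further values. ALDH2, the mitochondrial enzyme that oxidises acetaldehyde, stood at 37.8 RPKM in WT against 39.7 in MYOCD. Of 24 other carbonyl and alcohol enzymes 15 passed the filter and 0 reached 2-fold, beside 11.8% of all genes and 6.11% of protein-coding genes. In that list PTGR1, the prostaglandin reductase that also reduces reactive alkenals, stood at 245 and 159 RPKM, HSD17B4 at 134.2 and 169, and ADH5, which oxidises the glutathione adduct of formaldehyde, at 70.2 and 75.2. The alcohol dehydrogenase genes ADH1A, ADH1B, ADH4 and ADH7 were at 0 in both libraries. The processed pseudogene GSTM3P1 stood at 0.395 and 1.16 RPKM, while GSTM3 stood at 7.37 and 3.26.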
